A study of Mus musculus with 9 samples.

Results

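The circadian clock genes described here are 10 genes chosen by symbol: Arntl, Clock, Per1, Per2, Per3, Cry1, Nr1d1, Nr1d2, Dbp and Tef. They were followed among 24054 genes counted in splenic type 2 dendritic cells of young and adult mice. All 10 were among the 14452 genes that passed the filter on low counts, an average count of at least 1 per library.

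The mammalian clock is a feedback loop of transcription. ARNTL (also called BMAL1) and CLOCK pair to activate genes through E-box motifs, and the PER and CRY proteins they induce return to the nucleus and repress them. The nuclear receptors NR1D1 and NR1D2 (REV-ERB alpha and beta) repress Arntl through ROR elements, where the ROR receptors activate, and DBP and TEF carry the rhythm to output genes through D-box motifs. Many immune cells, dendritic cells and macrophages included, hold such a clock, and some of its genes also respond to hormones and to stimulation of the cell.

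Bulk RNA was sequenced from 3 groups of 3 libraries, all from C57BL/6 mice that carried Clec9a-Cre on both alleles and a Rosa-tdTomato reporter. TOM+ cDC2 carry the red reporter because they or their precursors once expressed Cre from the Clec9a locus, which marks the dendritic cell lineage, whereas TOM- DC2 share the sort gate (live CD11c+ MHCII+ CD11b+ cells without autofluorescence) and lack the reporter. Young TOM+ cDC2 and young TOM- DC2 came from mice 8 days old whose spleens were pooled, and adult TOM+ cDC2 from mice of 9 weeks (1 library) or 8 weeks (2 libraries). There was no adult TOM- group here. As Cre is inserted in Clec9a on both alleles, all groups share a disrupted Clec9a gene. The deposited names number the libraries 81, 91 and 92 in each young group and 91, 92 and 95 in adults, without saying what a number stands for. Mice lived in a cycle of light and dark. The time of day at which spleens were taken is not given in the sources used here, so its part in any difference between young and adult mice was not tested. The same holds for the way of killing, decapitation in young and cervical dislocation in adult mice, which cannot be told apart from age.

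Reads assigned to genes ranged from 12783252 to 22809401 per library. The 12 genes fixed as markers of cDC2 (such as Itgax, Flt3, Zbtb46 and the MHC class II genes) were detected in every group. By edgeR at an adjusted p under 0.05, 3 were higher and 8 lower in each young group than in adults. Between the young groups 0 differed. Esam averaged 19.0 TPM in young TOM+, 28.4 TPM in young TOM- and 80.0 TPM in adult cells. The paper reports slightly fewer ESAM-high cells among cDC2 of young than of adult mice. The part of this make-up in the differences with age below was not tested. Levels are given as TPM, the deposited unit that scales each transcript to its length and to the total of the library. Library 81 of young TOM- DC2 stood apart from its group in other cell types' markers: neutrophil markers summed to 32.8 TPM there and to at most 1.01 TPM in the other 8 libraries, and erythroid markers to 11.4 TPM against at most 2.17 TPM. Summed B cell markers were 63.6 to 72.7 TPM in young TOM+, 72.3 to 82.8 TPM in young TOM- and 42.2 to 54.6 TPM in adult cells, and monocyte markers 263 to 292, 207 to 252 and 179 to 204 TPM. Their part in the differences with age below was not tested.

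RefSeq promoter windows on GRCm38.p6 (the build the reads were mapped to), 250 bases before to 50 after a transcription start, were on hand for 9 members in 14 windows; Per2 had none. They were searched on both strands for the E-box CACGTG, the D-boxes TTATGTAA, TTACGTAA and TTATGCAA, and the ROR elements TAGGTCA and TGGGTCA, because these letters are where the members' own proteins bind. The E-box was in windows of 3 members (Per1, Cry1, Tef), a D-box in those of 2 (Per1, Per3) and a ROR element in 1 (Arntl). Counted by window, the E-box was in 4 of the 14, a D-box in 2 and a ROR element in 1. Of all 32851 windows, 7.15% held the E-box, 1.78% a D-box and 6.45% a ROR element. The matches are shown with 11 bases on each side, 5′ to 3′ on the gene's strand, the motif in capitals. A match here is a description of the sequence and not of binding.
Arntl ROR element, chr7:113207530-113207558: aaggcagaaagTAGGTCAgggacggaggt
Per1 E-box, chr11:69098772-69098799: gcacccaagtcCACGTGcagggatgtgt
Per1 D-box, chr11:69098914-69098943: agggcctggcaTTATGCAAcccgcctccca
Per3 distal D-box, chr4:151044852-151044881: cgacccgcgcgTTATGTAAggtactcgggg
Per3 proximal D-box, chr4:151044805-151044834: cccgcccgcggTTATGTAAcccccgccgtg
Cry1 E-box, chr10:85185098-85185125: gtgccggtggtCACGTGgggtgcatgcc
Tef E-box, first start, chr15:81802535-81802562: tgctgtggctcCACGTGctgcagctggc
Tef E-box, second start, chr15:81811265-81811292: acctggcccagCACGTGtctacatcgtt
Arntl, Per1 and Tef lie on the plus strand and Per3 and Cry1 on the minus strand. The Arntl match began 30 bases after the downstream one of its annotated starts, and the Per1 matches 166 bases (E-box) and 24 bases (D-box) before the start. The Per3 matches began 205 and 158 bases before the start, and the Cry1 match 60 bases before it. The window of Nr1d1, the member that set the young groups apart, held none of these letters, nor did those of Nr1d2, Dbp and Clock. Its 250 bases before the start, chr11:98775378-98775627 on the minus strand, are given for that reason.
Nr1d1 promoter: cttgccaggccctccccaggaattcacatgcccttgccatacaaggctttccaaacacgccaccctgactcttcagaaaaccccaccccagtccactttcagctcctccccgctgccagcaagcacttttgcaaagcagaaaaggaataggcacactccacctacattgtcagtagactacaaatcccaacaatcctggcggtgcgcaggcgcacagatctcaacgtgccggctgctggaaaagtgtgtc

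Per1 and Cry1 were the most abundant members by mean TPM in every group. In young TOM+ cDC2 they stood at 46.7 ± 2.93 and 37.8 ± 0.757 TPM (SD, n = 3), followed by Tef at 14.9 ± 1.62, Nr1d2 at 7.19 ± 0.732 and Arntl at 5.96 ± 0.637 TPM. Clock, Dbp and Per2 followed between 3.01 and 3.73 TPM, and here Nr1d2 and Arntl, Clock and Dbp, and Dbp and Per2 overlapped between libraries. Per3 and Nr1d1 were at the bottom, at 0.540 ± 0.142 and 0.523 ± 0.251 TPM, and did not differ beyond their spread. In adult TOM+ cDC2 the order was Per1, Cry1, Nr1d2, Tef, Arntl, Dbp, Clock, Per2, Per3 and Nr1d1, and the neighbours Nr1d2 and Tef, and Tef and Arntl, overlapped between libraries. In young TOM- DC2 Nr1d1 stood between Tef and Nr1d2, at 11.1 ± 2.68 TPM, and overlapped both. The other 9 were in the order of young TOM+ cDC2 except that Dbp was above Clock, and Per1 and Cry1, Nr1d2 and Arntl, and Clock and Per2 overlapped.

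**Figure D1:**
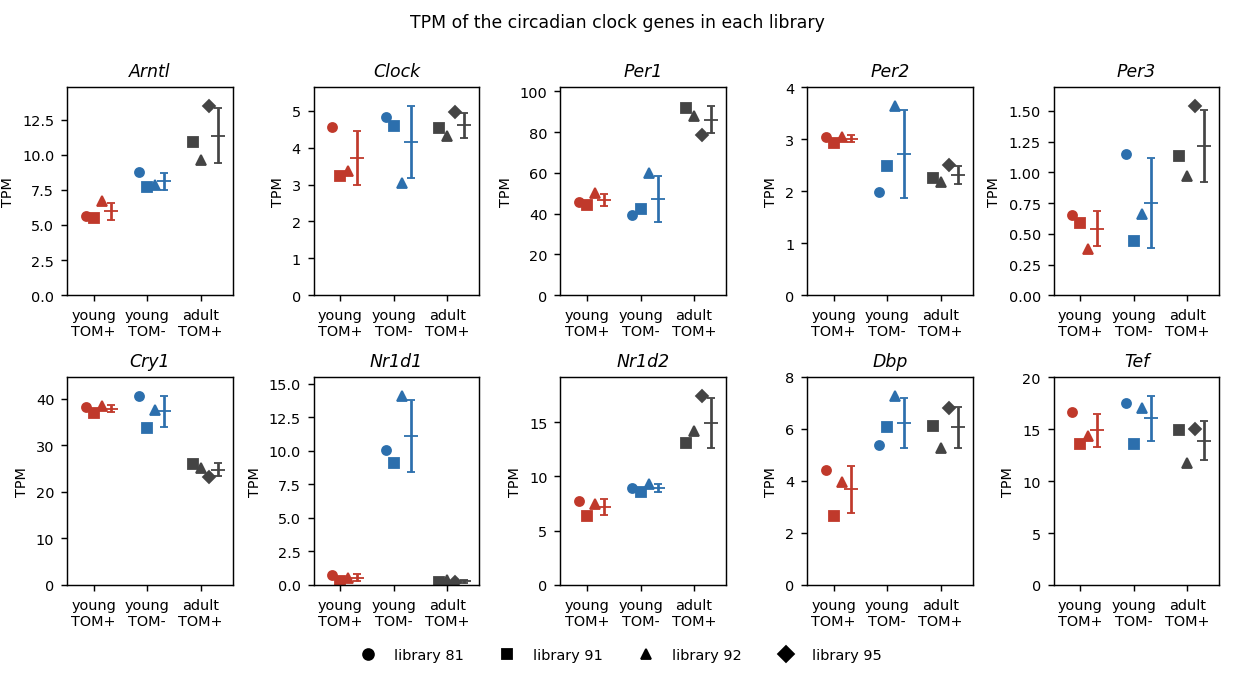
TPM (linear axes from 0) of the 10 clock genes in each of the 9 libraries, by group, with the group mean and SD (n = 3) beside the points and the library number as symbol; an adult and a young library with the same number were not found to be paired. Nr1d1 stands at 9.05 to 14.1 TPM in the 3 young TOM- libraries and at 0.19 to 0.76 TPM in the other 6.

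Nr1d1 was the member that separated young TOM- DC2 from both other groups. The gene encodes REV-ERB alpha, the heme-binding repressor of Arntl. It spans chr11:98767932-98775377 (gene ID 217166) and overlaps the 3′ end of Thra by 1075 bases on the opposite strand. Its TPM was 10.1, 9.05 and 14.1 in libraries 81, 91 and 92 of young TOM- DC2, from 234, 243 and 543 reads. In young TOM+ cDC2 it was 0.76, 0.26 and 0.55 TPM, from 24, 8 and 19 reads, and in adult TOM+ cDC2 0.20, 0.40 and 0.19 TPM, from 4, 8 and 5 reads. All 3 TOM- libraries thus lay above all 6 TOM+ libraries. The level in TOM- DC2 was 19.8-fold that in young TOM+ cDC2 (log2 fold change 4.31 ± 0.30 SE, adjusted p = 8.8e-06, edgeR's quasi-likelihood test with Benjamini-Hochberg adjustment, as for every adjusted p here). It was 39.5-fold that in adult TOM+ cDC2 (log2 fold change 5.31 ± 0.35 SE, adjusted p = 8.4e-07). Within same-numbered young libraries, the TOM- library was higher by 3.53, 4.67 and 4.44 in log2 CPM (counts scaled to the effective library size) in pairs 81, 91 and 92. Between the TOM+ groups the log2 difference was 1.00 (95% interval -0.03 to 2.02, young minus adult), which did not pass (adjusted p = 0.11). It passed only when young TOM+ library 91 was left out (log2 fold change 1.26, adjusted p = 0.045). The counts without strand, which leave out reads shared with Thra, came to 1020 reads over the 3 TOM- libraries, and the counts of both strands together to 1021.

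In bulk RNA, a larger share of cells with the transcript and more transcript per cell cannot be told apart, for Nr1d1 as for the other genes. Summed markers of other cells differed between the young groups in both directions. Those of monocytes were lower in TOM- than in TOM+ cells (207 to 252 against 263 to 292 TPM). So were those of plasmacytoid dendritic cells (20.2 to 22.57 against 22.79 to 27.85 TPM). Those of T cells were higher in TOM- cells (36.5 to 38.1 against 27.3 to 27.9 TPM), most of it from Cd5 (35.3 against 25.2 TPM on average). The 7 markers listed for red pulp macrophages that the tables hold summed to 282 to 344 TPM in young TOM- DC2, 173 to 222 TPM in young TOM+ cDC2 and 101 to 152 TPM in adults, and none was at 0 in every library of a group. None of the 7 passed between the young groups by edgeR, where 5 were lower in TOM+ cDC2 at an unadjusted p under 0.05. At an adjusted p under 0.05, 2 were lower in TOM+ cDC2 by DESeq2 and 0 by limma. Of the markers for type 3 innate lymphoid cells (ILC3), 6 are used here, and they summed to 7.34 to 8.74 TPM in young TOM- DC2, 3.05 to 3.88 TPM in young TOM+ cDC2 and 3.69 to 5.82 TPM in adults. Of these, 1 passed between the young groups, Gata3, which was higher in TOM- DC2. Il22 and Il17a were at 0 in all libraries. The sort gate took CD11c+ CD11b+ cells without autofluorescence. How many red pulp macrophages or innate lymphoid cells passed that gate was not measured here. Of 5 B cell markers tested, 1 passed between the young groups, Ms4a1 (log2 difference TOM+ minus TOM- -1.59, adjusted p = 0.0018). It averaged 2.46 TPM in young TOM+, 7.80 TPM in young TOM- and 16.9 TPM in adult cells, so that unlike Nr1d1 it was highest in adults. Cd79b, the most abundant of these markers in the young groups, did not pass (-0.03, adjusted p = 0.98). The part of other cells in the Nr1d1 level was not tested. Without library 81 of TOM- DC2, the one with neutrophil and erythroid markers, the Nr1d1 log2 fold change of young TOM+ against TOM- was -4.41 (adjusted p = 1.1e-05). Over the 18 alternative settings, each single library left out in turn included, it ran from -4.60 to -2.98 and passed in 18 of 18.

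Between the young groups, few genes of any kind differed: 0.125% of tested genes passed as higher in TOM+ cDC2, 1.47% passed as lower, and 1.18% were called, that is, passed with a log2 fold change beyond 1. Of the 10 members, 0 passed as higher in TOM+ cDC2 and 1 as lower, Nr1d1, which was also the 1 called. At an unadjusted p under 0.05, edgeR gave 0 higher and 4 lower, and by DESeq2 and limma 0 passed as higher and 1 as lower. For the other 9 the intervals bound what these libraries could show. The core genes Clock, Per1, Per2, Cry1 and the output factor Tef differed by -0.12, -0.00, 0.11, 0.06 and -0.08 on the log2 scale (TOM+ minus TOM-). The 95% interval of Per1 ran from -0.32 to 0.32, that of Cry1 from -0.13 to 0.25, that of Tef from -0.33 to 0.17, that of Clock from -0.47 to 0.23 and that of Per2 from -0.30 to 0.53. Per3 was too thinly covered to bound closely (116 and 144 reads over 3 libraries; -1.03 to 0.28).

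For 3 further members, Arntl, Nr1d2 and Dbp, the TPM ranges of the young groups did not overlap although the test was not passed. With Nr1d1 that makes 4 of 10 members whose TPM was lower in all TOM+ than in all TOM- libraries, beside 9.41% of all genes tested. Arntl, the partner of CLOCK, stood at 5.67, 5.52 and 6.69 TPM in young TOM+ cDC2 and at 8.78, 7.68 and 7.87 TPM in TOM- DC2 (log2 difference TOM+ minus TOM- -0.40, 95% interval -0.69 to -0.11, adjusted p = 0.27). Nr1d2, the sister receptor of Nr1d1, stood at 7.71, 6.35 and 7.50 TPM against 8.93, 8.60 and 9.28 TPM (log2 difference -0.33, 95% interval -0.61 to -0.05, adjusted p = 0.39). Dbp, a D-box activator, stood at 4.40, 2.65 and 3.96 TPM against 5.37, 6.06 and 7.28 TPM (log2 difference -0.70, 95% interval -1.16 to -0.23, adjusted p = 0.19). In all 3 pairs of same-numbered libraries each of these was higher in TOM- DC2, as were 21.4% of all genes tested. Pair differences were 0.49, 0.51 and 0.22 in log2 CPM for Arntl, 0.25, 0.45 and 0.29 for Nr1d2, and 0.28, 0.88 and 0.83 for Dbp. With the replicate block by library number, which compares within pairs, Nr1d2 passed as well (log2 difference -0.33, adjusted p = 0.049), so that 2 members passed in place of 1.

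**Figure D2:**
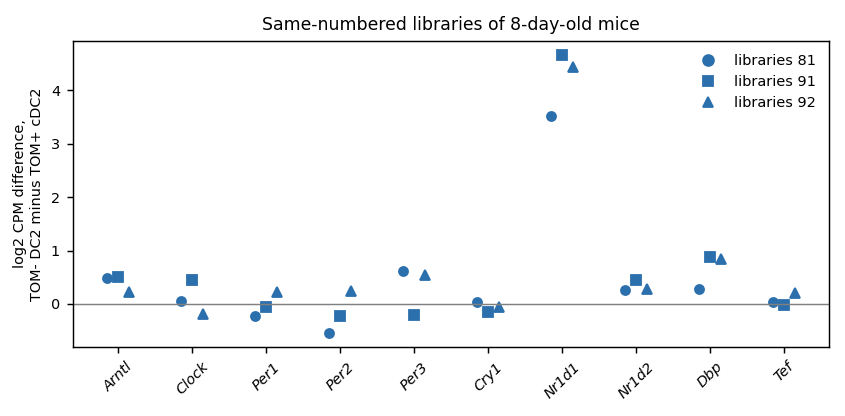
Difference in log2 CPM between young TOM- DC2 and young TOM+ cDC2 libraries of the same number (81, 91, 92; 3 points per gene), for each clock gene; the line marks no difference. Nr1d1 stands at 3.53 to 4.67, and the points of Arntl, Nr1d2 and Dbp are all above 0 and below 1.

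More members passed against adults than between the young groups. Against adult TOM+ cDC2, 1 member was higher (Cry1) and 6 were lower (Arntl, Clock, Per1, Per3, Nr1d2, Dbp) in young TOM+ cDC2. Of all genes, 21.0% passed as higher and 19.5% as lower in that comparison, and 12.8% were called, so a difference with age was common among all genes. The called members were 4: Arntl, Per1, Per3 and Nr1d2, all lower in young cells. In young TOM- DC2 against the same 3 adult libraries, 2 members were higher (Nr1d1, Cry1) and 4 were lower (Arntl, Per1, Per3, Nr1d2), where 19.4% of all genes passed as higher, 16.9% as lower and 11.3% were called. The 1 called member was Nr1d1. Libraries also differed by age in how reads mapped: reads without a feature made 15.2 to 17.1% in adults and 8.84 to 12.8% in the 6 young libraries, and multimapping reads 10.4 to 10.9% and 12.7 to 13.4%. These do not overlap between the ages, and their part in the differences with age was not tested. Both age comparisons use the adult libraries, so their values are given side by side and are not independent. The median log2 fold change of the 10 members was -0.54 in TOM+ and -0.14 in TOM- cells against adults, beside 0.05 and 0.07 over all genes tested.

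**Figure D3:**
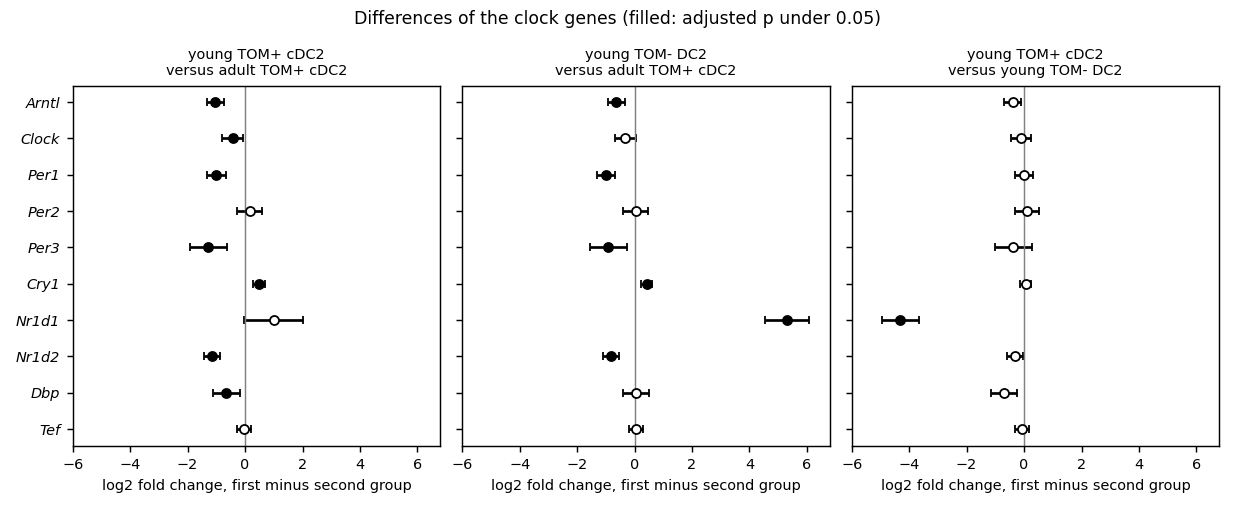
Log2 fold change (first group minus second) of each clock gene in the 3 comparisons, with its 95% interval from the fit over 9 libraries; filled points passed at an adjusted p under 0.05. Cry1 lies above 0 and Arntl, Per1, Per3 and Nr1d2 below 0 in both comparisons with adults, and Nr1d1 lies far from 0 where TOM- DC2 are compared.

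Among the activators, Arntl was lowest in young TOM+ cDC2, intermediate in young TOM- DC2 and highest in adults, at 10.9, 9.62 and 13.5 TPM in libraries 91, 92 and 95. Adult libraries did not overlap either young group. Adult Arntl was 2.05-fold that of young TOM+ cDC2 (log2 fold change young minus adult -1.04 ± 0.14 SE, adjusted p = 7.6e-05) and 1.56-fold that of TOM- DC2 (-0.64 ± 0.13 SE, adjusted p = 0.0026). Clock, which encodes the partner of ARNTL, stood at 4.57, 3.24 and 3.37 TPM in young TOM+ cDC2, 4.84, 4.58 and 3.03 TPM in TOM- DC2 and 4.54, 4.31 and 4.96 TPM in adults, with overlapping ranges. Its log2 difference of -0.44 ± 0.16 SE passed narrowly in TOM+ cells (adjusted p = 0.049) and in 11 of 18 alternatives. In TOM- cells it was -0.32 ± 0.16 SE and did not pass (adjusted p = 0.14).

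Among the repressors, Per1 and Cry1 moved in opposite directions with age. Per1, the period gene that light, glucocorticoids and cAMP can induce, stood at 45.7, 44.3 and 49.9 TPM in young TOM+ cDC2, 39.4, 42.45 and 59.99 TPM in TOM- DC2, and 91.6, 88.1 and 78.7 TPM in adults. The adult libraries were above all 6 young ones. The level in adults was 2-fold that of young TOM+ cDC2 (log2 difference -1.0 ± 0.15 SE, adjusted p = 0.00019) and 2-fold that of TOM- DC2 (-1.0 ± 0.15 SE, adjusted p = 0.00024). The value lies at the fold threshold, so that Per1 counts as called in the first and not in the second comparison. Cry1, a direct inhibitor of the CLOCK and ARNTL pair, stood at 38.2, 37.0 and 38.4 TPM in young TOM+ cDC2, 40.5, 33.75 and 37.6 TPM in TOM- DC2, and 26.0, 25.2 and 23.3 TPM in adults. All young libraries were above all adult ones, 1.40-fold in TOM+ (log2 difference 0.48 ± 0.09 SE, adjusted p = 0.0010) and 1.34-fold in TOM- cells (0.43 ± 0.09 SE, adjusted p = 0.0028).

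The other period genes were weakly expressed. Per3 stood at 0.65, 0.59 and 0.38 TPM in young TOM+ cDC2, 1.15, 0.44 and 0.66 TPM in TOM- DC2, and 1.13, 0.97 and 1.54 TPM in adults. Adult and young TOM+ libraries did not overlap, while TOM- library 81 reached the adult range. The log2 difference to adults was -1.28 ± 0.30 SE in TOM+ cells (adjusted p = 0.0043) and -0.91 ± 0.29 SE in TOM- cells (adjusted p = 0.027). The latter passed in 12 of 18 alternatives and failed without TOM- library 91 or 92 or adult library 91 or 95 (adjusted p = 0.10, 0.085, 0.061 and 0.11) and with limma on log2(TPM + 1) or log2(TPM + 0.1) (adjusted p = 0.11 and 0.15). Per2 stood at 3.05, 2.93 and 3.05 TPM in young TOM+ cDC2, 1.99, 2.49 and 3.64 TPM in TOM- DC2, and 2.26, 2.17 and 2.50 TPM in adults. Its TPM ranges in young and adult TOM+ cells did not overlap, yet the count test gave a log2 difference of 0.15 (95% interval -0.27 to 0.58, adjusted p = 0.56).

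The nuclear receptors had unlike patterns. Whereas Nr1d1 was nearly absent from TOM+ cells of both ages, Nr1d2 was detected in every library and was highest in adults, at 13.1, 14.2 and 17.5 TPM. The adult libraries lay above all young libraries. Adult Nr1d2 was 2.21-fold that of young TOM+ cDC2 (log2 difference -1.15 ± 0.13 SE, adjusted p = 2.5e-05) and 1.76-fold that of TOM- DC2 (-0.82 ± 0.13 SE, adjusted p = 0.00034).

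Of the D-box activators, Dbp stood at 6.13, 5.25 and 6.82 TPM in adults, a range that overlapped that of young TOM- DC2 and lay above young TOM+ cDC2. The log2 difference of young TOM+ to adult cells was -0.65 ± 0.22 SE (adjusted p = 0.032), which failed without young TOM+ library 91 (adjusted p = 0.11) or adult library 91 or 95 (adjusted p = 0.084 and 0.11). In TOM- cells the log2 difference to adults was 0.05, with a 95% interval of -0.41 to 0.51. Dbp overlaps Sphk2 by 741 bases, and the counts without strand held 0.527 to 0.562 of the reads that both strands gave together, so reads in the overlap are missing from its counts in every group. Tef stood at 16.7, 13.6 and 14.4 TPM in young TOM+ cDC2, 17.6, 13.5 and 17.1 TPM in TOM- DC2, and 14.95, 11.8 and 15.03 TPM in adults. Its log2 difference to adults was -0.03 (95% interval -0.29 to 0.22) in TOM+ and 0.04 (-0.21 to 0.30) in TOM- cells. Tef had the smallest range of group means among the members, 0.0706 in log2 CPM beside a pooled SD within groups of 0.151.

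The called members had different nearest genes. For each, the 11118 genes with a mean of at least 1 TPM were ranked by the root mean square difference of centred log2 CPM over the 9 libraries. Arntl and Nr1d2 were close to each other: Nr1d2 ranked 12 for Arntl and Arntl 26 for Nr1d2, with a difference of 0.137. Nearest to Arntl were Herc3 (0.118), Usp11 (0.125) and Cep70 (0.127), and nearest to Nr1d2 were Dtx3 (0.0599), Crebrf (0.0856) and Rab3ip (0.0908). Nearest to Per1 were Odc1 (0.109), Elovl5 (0.116) and Ehd1 (0.120), and nearest to Per3 were Hectd2 (0.162), Tnfrsf14 (0.198) and Syne1 (0.207). Nr1d1 had no other member near it. Its nearest genes were Clnk (0.424), Pbld1 (0.429) and Foxs1 (0.502), which averaged 3.94, 3.08 and 7.87 TPM in young TOM- DC2 and at most 0.07 TPM in either TOM+ group. As they were picked by likeness to Nr1d1, this pattern follows from the choice. They reached the mean of 1 TPM only through young TOM- DC2. The measure describes these 9 libraries, where 3 groups give most of the spread.

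Of 12 other components of the clock examined here, 11 were tested. Between the young groups 1 of them passed, Npas2, higher in TOM- DC2 like Nr1d1, beside 1.47% of all genes tested that passed in that direction. Npas2, a paralog of Clock that can also pair with ARNTL, stood at 1.22, 1.27 and 2.23 TPM in TOM- DC2, from 43, 52 and 132 reads, and at 0.04, 0.02 and 0.06 TPM in TOM+ cDC2, from 2, 1 and 4 reads (log2 difference -4.91, adjusted p = 0.00018). In adults Npas2 had 1, 0 and 1 reads, so no fold against adults is given. Rora, whose product activates at ROR elements, averaged 1.42 TPM in young TOM+ and 1.59 TPM in TOM- cells and did not pass between them (adjusted p = 0.94), nor did Cry2, the paralog of Cry1, at 7.11 and 7.07 TPM (adjusted p = 0.98).

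**Figure D4:**
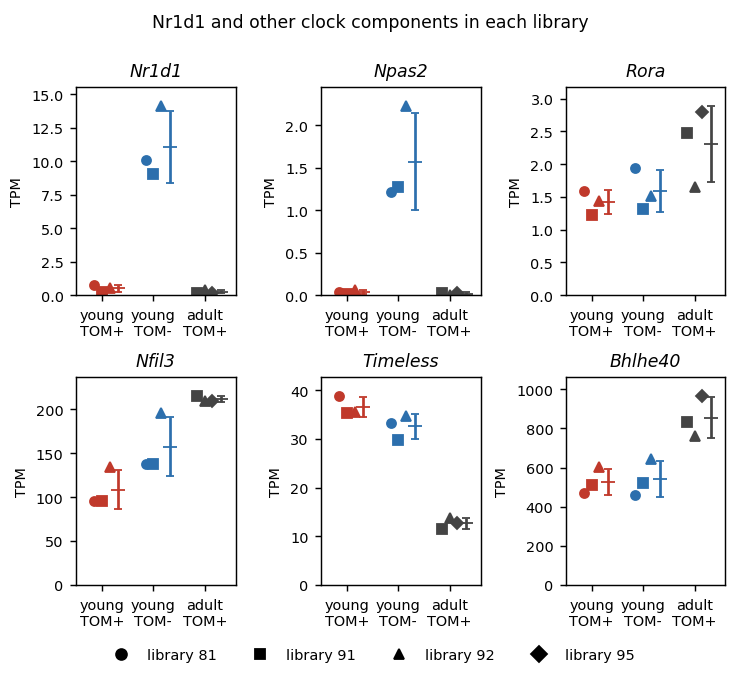
TPM (linear axes from 0) of Nr1d1 and 5 other clock components in each library, by group, with the group mean and SD (n = 3) and the library number as symbol. Npas2, like Nr1d1, is near 0 in all 6 TOM+ libraries, while Nfil3 and Bhlhe40 are highest in adults and Timeless is highest in young cells.

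Against adults, 1 other component was higher and 4 were lower in young TOM+ cDC2, and 3 were higher and 4 lower in TOM- DC2, of the 11 tested. Of all genes tested, 21.0% passed as higher and 19.5% as lower in TOM+ cells, and 19.4% and 16.9% in TOM- cells, so such differences were common among all genes. The lower ones were Nfil3, Bhlhe40, Rora and Cipc in both comparisons. Nfil3, which encodes a D-box repressor that opposes DBP and TEF and is also a regulator of immune cell development, averaged 109 TPM in young TOM+ cDC2, 157 TPM in TOM- DC2 and 211.5 TPM in adults (log2 difference to adults -1.08, adjusted p = 0.00033, and -0.58, adjusted p = 0.018). It was thus far more abundant than Dbp or Tef in every group. Bhlhe40, an E-box repressor, averaged 528, 541 and 853 TPM (log2 difference -0.82 and -0.81, adjusted p = 0.00085 and 0.0011). Rora had log2 differences of -0.86 and -0.75 (adjusted p = 0.0016 and 0.0044), and Cipc, which encodes a CLOCK-interacting repressor, of -0.58 and -0.66 (adjusted p = 0.0028 and 0.0014). Timeless was higher in young cells, with 36.6 TPM in TOM+ and 32.6 TPM in TOM- cells against 12.6 TPM in adults (log2 difference 1.40 and 1.21, adjusted p = 6.4e-07 and 2.5e-06). Its product in mammals is best known as part of the replication fork. All 12 proliferation genes listed were higher in both young groups, with summed levels of 1001 to 1306 TPM against 291 to 453 TPM in adults. The largest differences among these were those of Ube2c (1.75 in TOM+ and 1.58 in TOM- cells), Ccnb1 (1.73 and 1.75) and Bub1 (1.65 and 1.38). The part of proliferation in the Timeless level was not tested. The other two higher in TOM- DC2 were Npas2 and Arntl2, the last with at most 11 reads in any library.

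Of 10 genes whose products modify clock proteins, 9 were tested, and the same 3 passed in both age comparisons. Of all genes tested, 21.0% passed as higher and 19.5% as lower in TOM+ cells, and 19.4% and 16.9% in TOM- cells. Csnk2b, a subunit of casein kinase 2, was higher in young cells (log2 difference 0.52 in TOM+ and 0.49 in TOM- cells). Csnk1e, a kinase of PER proteins (-0.47 and -0.52), and Fbxw11, part of the ligase that marks phosphorylated PER for degradation (-0.53 and -0.62), were lower. Csnk1d, a further PER kinase, had log2 differences of -0.04 in TOM+ and -0.05 in TOM- cells that did not pass. Between the young groups 0 of the 9 passed by edgeR, DESeq2 or limma, and 0 had an unadjusted p under 0.05 in edgeR.

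Of 8 output genes known to cycle in many tissues, 2 passed as higher (Tspan4 and Wee1) and 3 as lower (Nampt, Coq10b and Por) in young TOM+ cDC2 against adults, with the same counts in TOM- DC2. The shares of all genes tested were 21.0% higher and 19.5% lower in TOM+ cells, and 19.4% and 16.9% in TOM- cells. Nampt, the rate-limiting enzyme of NAD salvage and an E-box target of the clock, averaged 32.5 TPM in young TOM+, 34.5 TPM in TOM- and 74.95 TPM in adult cells (log2 difference -1.34 and -1.29, adjusted p = 1.6e-06 and 2.8e-06). Usp2 and Tsc22d3 did not pass.

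Some genes that respond to hormones or to handling of cells also differed with age, as Per1 did. Of all genes tested, 19.5% passed as lower than adults in TOM+ and 16.9% in TOM- cells. Of 8 glucocorticoid-induced genes, a list that holds Per1 itself, 0 were higher and 4 lower in each young group against adults, and Klf9 had the largest difference (log2 difference -1.79 in TOM+ and -1.97 in TOM- cells, adjusted p = 0.00030 and 0.00020). Zbtb16 was also called in TOM+ cells (-1.21). Fkbp5, Ddit4 and Tsc22d3 of this list passed in neither comparison by edgeR. Their adjusted p was 0.64, 0.95 and 0.065 in TOM+ and 0.33, 0.19 and 0.063 in TOM- cells. By DESeq2 the lower counts were 6 and 5, and by limma 3 and 3. Of 13 immediate early genes, 0 were higher and 8 were lower in young TOM+ cDC2, and 9 were lower in TOM- DC2. By DESeq2 the lower counts were 8 and 7, and by limma on log2(TPM + 1) 6 and 5. The called ones were Egr3 (-1.65 and -1.25), Jund (-1.26 and -1.12) and, in TOM+ cells, Egr2 (-1.34). The summed level of the 13 was 11490 to 16530 TPM in young TOM+, 11150 to 16840 TPM in TOM- and 17890 to 24550 TPM in adult cells. Library 81 gave the low end in both young groups. Libraries 91 and 92 stood at 15990 and 16530 TPM in TOM+ and at 15930 and 16840 TPM in TOM- cells. Between the young groups 0 of either list passed by edgeR, DESeq2 or limma, and 0 had an unadjusted p under 0.05 in edgeR. The 0 higher against adults were 0 by those counts too. Their part in the levels of Per1, Arntl, Per3 and Nr1d2 was not tested.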

How the data were processed

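RNA of 9 sorted samples was made into SMART-seq v4 cDNA libraries, which do not keep strand, and sequenced as single-end reads. The authors mapped reads to mm10 with STAR and estimated expression with RSEM (versions not given in the sources used here). The deposited files hold STAR read counts per gene, not normalized (the column without strand was used), and, from RSEM, expected counts and TPM, along with deposited FPKM values that were not used. TPM gave levels; counts were tested with edgeR 4.0.16 in R 4.3.3 (quasi-likelihood test, TMM scaling, all 9 libraries, average count per gene 1 or more). Of the other rows, which name no gene and were left out, unmapped reads made 2.65 to 3.30% of a library, multimapping reads 10.4 to 13.4%, reads without a feature 8.84 to 17.1% and ambiguous reads 0.849 to 0.969%. P-values were adjusted by Benjamini and Hochberg over the 14452 genes tested; a gene passed at 0.05 and was called when its log2 fold change was also beyond 1. Intervals are 95% intervals from the same fit and cover the spread between libraries. Labels name libraries of 1 group as separate samples but not which mice they came from, so p-values measure the spread between libraries, which may in part be technical. The fit was tested on simulated data.

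Some genes of the lists are not reported here and are left out of the lists' counts and sums. The members and gene lists were chosen with earlier results of these data known. Named were the members, other clock components and modifiers, and from further lists genes called in a comparison, the 3 largest first. Wee1, Coq10b, Por, Usp2, Tsc22d3, Fkbp5, Ddit4, Il22, Il17a, Cd5, Cd79b and the cDC2 markers Itgax, Flt3 and Zbtb46 lie outside that rule and were named after their values were seen. Apart from Esam, which was also named after its values were seen, cell type markers called against adults are not named one by one. Alternatives were DESeq2 1.42.0 (test or size factors), no filter or at least 1 CPM in 3 libraries, rounded RSEM expected counts, limma 3.58.1 on log2(TPM + 1) or log2(TPM + 0.1), only the 2 groups compared, a block by library number, and each library left out, 18 in all. Library numbers, taken from the deposited names, were taken to pair the young groups because deviations from group means correlated within each pair (0.50, 0.18 and 0.33), although TOM+ library 92 and TOM- library 91 also reached 0.185; young and adult libraries of the same number did not (at most 0.041).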

Additional observations from a re-analysis of the deposited data

How the results depend on the processing

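For the members, 163 of 180 values kept direction and side of the threshold in young TOM+ against adult cells, 166 of 180 in young TOM- against adult cells, and 171 of 180 between the young groups, over 18 alternatives each. Arntl, Per1, Cry1 and Nr1d2 passed in 18 of 18 in both age comparisons, Per3 in 18 of 18 in TOM+ cells, and Nr1d1 in 18 of 18 in both comparisons with TOM- DC2. With limma on log2(TPM + 1), 1122 and 986 genes were called in young TOM+ and TOM- cells against adults, in place of 1853 and 1631; log2(TPM + 0.1) moved the median of all genes by 0.12 and 0.15. The replicate block by library number gave 2 members passed and 274 genes called between the young groups, in place of 1 and 170. In the age comparisons, where the numbers do not pair, Dbp no longer passed with that block in TOM+ cells (log2 fold change -0.51, adjusted p = 0.11). Clock passed with it in TOM- cells (-0.41, adjusted p = 0.017). Clock in TOM+ against adult cells did not pass with limma (adjusted p = 0.28) or without young TOM+ library 91 or 92 or adult library 91, 92 or 95 (0.14, 0.13, 0.11, 0.078 and 0.12).

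Direction turned only for members that did not pass; the values are log2 fold changes, first group minus second. In young TOM+ against adult cells, Tef was 0.094 and 0.10 with limma and -0.13 to 0.030 with 1 library left out. In young TOM- against adult cells, Dbp was -0.14 with RSEM counts, and with 1 library left out Per2 ran from -0.27 to 0.23, Dbp from -0.16 to 0.18 and Tef from -0.052 to 0.13. Between the young groups, Per1 was 0.0062 with RSEM counts, 0.0036 and 0.0041 with limma, 0.014 with the replicate block and -0.13 to 0.21 with 1 library left out, where Per2 ran from -0.073 to 0.40. The cause was not tested. Depth limits Per3, Nr1d1 in TOM+ cells, Npas2 and Arntl2, which rest on few reads.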
